A study of Mus musculus with 20 samples.

Results

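The genotype difference after 1 h of inflammatory stimulation was measured in 6 of the 20 libraries of an RNA-seq time course in MEFs. These are primary fibroblasts, the cells of connective tissue, cultured from C57BL/6 mouse embryos. Of the 6 libraries, 3 came from cells labelled crel-/- and 3 from cells labelled crel-/-RelA-TA-KI, and each genotype had 1 library each for interleukin 1 beta (IL-1b, 10 ng/ml), bacterial lipopolysaccharide (LPS, 100 ng/ml) and tumour necrosis factor (TNF, 10 ng/ml). The libraries were chosen by genotype, agent and hour alone, and every difference below is crel-/-RelA-TA-KI (called the knock-in) minus crel-/-, paired by agent. Both genotypes lack the NF-kB subunit c-Rel, which Rel encodes, so the crel-/- cells are the control of this comparison and not wild-type cells. The knock-in cells carry in addition an altered allele of Rela, the gene for the subunit RelA. The abbreviation TA and the altered residues are not explained in the labels. The series title asks how RelA target genes differ in their use of transactivation. Cells were starved in 0.5% serum before stimulation, and unstimulated libraries (0 h, 1 per genotype) and libraries at 0.5 and 3 h are used below to place the 1 h difference in time.

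NF-kB transcription factors are dimers that inhibitors of the IkB family hold in the cytoplasm of resting cells. IL-1b, LPS and TNF each activate a kinase complex that marks the inhibitors for destruction, after which RelA dimers enter the nucleus and bind kB sites. Their early target genes include the inhibitors themselves, chemokines that recruit leukocytes, adhesion molecules and survival factors. RelA recruits the transcription machinery through activation domains near its carboxyl terminus.

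The 6 libraries held between 9248151 and 12143881 counts, with 18404 to 19118 genes at 1 count or more, and their scaling factors lay between 1.00 and 1.04. A count of 3, taken as the detection floor, corresponded to 0.241 to 0.321 CPM, the unit of all levels below. CPM are counts scaled to a common library size, which are not divided by gene length and therefore compare libraries and not genes. No culture or replicate numbers are in the labels, so p-values measure the spread of the genotype difference over the 3 agents, part of which may be technical. With 2 residual degrees of freedom, the test draws the spread of each gene towards that of other genes. Small p-values therefore rest in part on other genes. The labels name no cell preparations, so genotype and preparation cannot be told apart. Of 14023 tested genes, those that reached 1 CPM in 2 or more of the 20 libraries, 521 were lower in knock-in cells (3.72%) and 370 were higher (2.64%), 891 in all (6.35%), at an adjusted p below 0.05 in edgeR's quasi-likelihood test with agent as a block. Of these, 147 were lower (1.05%) and 31 higher (0.221%) by at least 1 on the log2 scale. The median difference over all tested genes was 0.01. The block mattered for this count, since without it the spread between agents enters the error and 20 genes were lower and 3 higher. Without the TNF pair 333 were lower and 180 higher. Genes named below as lower or higher were called so at that threshold and, except Il1a, differed in the same direction in 3 of 3 agent pairs, which was true of 2748 tested genes for lower (19.6%) and of 2954 for higher (21.1%). The libraries at 0 h and under TNF stood apart from those under IL-1b and LPS in some transcripts, in both genotypes. In crel-/- cells the mitochondrial transcript mt-Cytb had 1294 CPM at 0 h and 1366 to 1987 CPM under TNF at 0.5 to 3 h, against 2500 to 3617 CPM under IL-1b and LPS, and the cartilage gene Comp 29.0 and 27.7 to 29.5 CPM against 43.1 to 63.3 CPM. In knock-in cells mt-Cytb had 1682 and 1250 to 1839 CPM against 2730 to 3481 CPM. Pairs by agent compare libraries of 1 such set, whereas a response of IL-1b or LPS cells against 0 h compares across them.

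**Figure D1:**
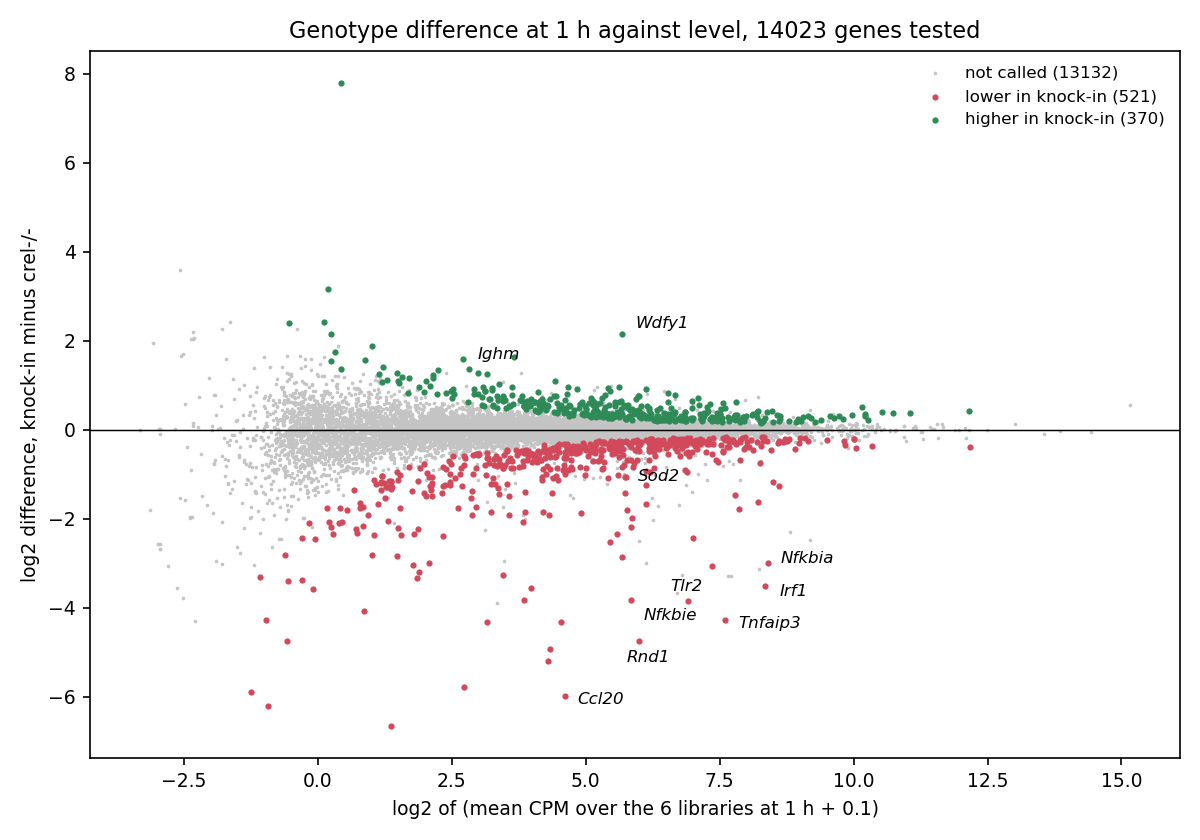
Log2 difference at 1 h (knock-in minus crel-/-, vertical axis) against the log2 of the mean level over the 6 libraries (CPM plus 0.1) for the 14023 tested genes, with called genes in colour. The 521 lower genes reach far below -1, whereas 31 of the 370 higher genes lie above 1.

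The targeted genes were measured first. Rel (ENSMUSG00000020275.9, mm10 chromosome 11, 23736847 to 23770970) had 35.9, 32.2 and 25 CPM under IL-1b, LPS and TNF in crel-/- cells and 24.5, 22.9 and 17.1 CPM in knock-in cells. It was thus read in all 6 libraries, lower in the knock-in under every agent, with a difference of -0.53 (SE 0.08, adjusted p = 0.00323). Rela (ENSMUSG00000024927.7, chromosome 19, 5637483 to 5648130) had 185, 99.1 and 165 CPM in crel-/- cells against 116, 82.1 and 115 CPM in knock-in cells, a difference of -0.49 (SE 0.07, adjusted p = 0.00511, and 0.0867 without the TNF pair). At 0 h both genes were close in the genotypes, with 72.7 and 79.9 CPM for Rela and 16.2 and 16.5 CPM for Rel. These counts cover the whole gene and cannot tell a deleted or altered exon from an intact one, so they do not check the genotype labels.

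The promoters of 8 genes that hold a match to the kB motif are printed here, 7 of them from genes with large differences at 1 h, to show the sequences beside the levels that follow. They were read from RefSeq (GRCm38.p6, the assembly of mm10), run 5′ to 3′ on the gene's strand and end at or before the base preceding the start site, with stretches inside annotated exons left out. Capitals mark matches to the kB consensus, searched on both strands as 3 G, a purine, any base, A or T, 2 pyrimidines and 2 C. A match is a description of the letters and not a site shown to be bound.
Nfkbia, the inhibitor IkB alpha (chr12:55492648-55492897, minus strand): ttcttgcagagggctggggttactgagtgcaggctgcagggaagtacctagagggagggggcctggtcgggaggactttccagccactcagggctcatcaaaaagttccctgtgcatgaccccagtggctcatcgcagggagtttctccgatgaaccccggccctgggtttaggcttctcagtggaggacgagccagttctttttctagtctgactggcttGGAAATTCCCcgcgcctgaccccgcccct
Tnfaip3, the ubiquitin-editing enzyme A20 (chr10:19015411-19015547, minus strand): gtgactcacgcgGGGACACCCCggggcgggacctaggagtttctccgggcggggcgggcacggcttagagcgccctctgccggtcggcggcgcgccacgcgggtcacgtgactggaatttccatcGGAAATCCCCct
Nfkbie, the inhibitor IkB epsilon (chr17:45555450-45555699, plus strand): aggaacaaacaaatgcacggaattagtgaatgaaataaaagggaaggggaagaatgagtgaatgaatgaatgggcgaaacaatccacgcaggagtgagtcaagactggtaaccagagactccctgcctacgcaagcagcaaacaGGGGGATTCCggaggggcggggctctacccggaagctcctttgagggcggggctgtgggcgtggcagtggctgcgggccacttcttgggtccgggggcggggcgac
Irf1, a transcription factor of interferon responses (chr11:53769764-53770013, plus strand): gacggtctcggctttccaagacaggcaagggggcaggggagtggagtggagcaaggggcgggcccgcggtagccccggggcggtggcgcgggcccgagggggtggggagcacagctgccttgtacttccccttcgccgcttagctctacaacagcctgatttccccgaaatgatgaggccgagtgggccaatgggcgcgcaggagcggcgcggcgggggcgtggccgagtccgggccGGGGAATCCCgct
Tlr2, a receptor for bacterial lipoproteins (chr3:83841768-83841858, minus strand): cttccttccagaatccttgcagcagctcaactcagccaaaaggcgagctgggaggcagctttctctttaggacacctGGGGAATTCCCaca
Cxcl1, a chemokine for neutrophils (chr5:90890995-90891240, plus strand): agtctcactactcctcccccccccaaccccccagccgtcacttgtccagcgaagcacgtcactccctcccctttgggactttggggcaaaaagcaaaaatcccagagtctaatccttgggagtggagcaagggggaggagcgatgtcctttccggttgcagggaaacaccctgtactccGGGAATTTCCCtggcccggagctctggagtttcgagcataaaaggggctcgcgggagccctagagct
Ccl20, a chemokine for CCR6-bearing lymphocytes (chr1:83116516-83116765, plus strand): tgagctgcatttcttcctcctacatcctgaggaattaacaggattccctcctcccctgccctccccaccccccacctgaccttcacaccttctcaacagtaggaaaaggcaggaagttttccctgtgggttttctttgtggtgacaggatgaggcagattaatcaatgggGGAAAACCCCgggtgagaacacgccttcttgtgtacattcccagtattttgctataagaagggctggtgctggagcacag
Fos, an AP-1 subunit and immediate early gene, shown because it holds a match and its level was not called different (chr12:85473640-85473889, plus strand): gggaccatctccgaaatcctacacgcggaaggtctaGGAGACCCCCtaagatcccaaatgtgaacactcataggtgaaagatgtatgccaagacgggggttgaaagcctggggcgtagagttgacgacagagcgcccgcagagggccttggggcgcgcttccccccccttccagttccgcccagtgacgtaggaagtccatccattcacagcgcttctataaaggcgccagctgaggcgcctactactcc

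Inhibitors and feedback regulators that NF-kB itself induces formed the first group. Of 15 listed genes, all tested, 10 were lower and none higher, and their median difference was -1.13 against 0.01 over all genes. The counts of this list and of those below stand beside 3.72% lower and 2.64% higher over all tested genes. The summed level of the 15 genes lay between 1954 and 2547 CPM in the crel-/- libraries and between 464 and 595 CPM in the knock-in libraries. With 1 agent pair left out, 8 or 9 of the 15 were lower, and without the agent block 5 were.

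Nfkbia stood at 499, 707 and 592 CPM under IL-1b, LPS and TNF in crel-/- cells and at 70.3, 62.5 and 92.2 CPM in knock-in cells. The groups lay far apart, the highest knock-in library being well below the lowest control, and the difference was -2.99 (SE 0.23, adjusted p = 0.0389). The call was kept without the LPS pair and lost without the IL-1b pair (adjusted p = 0.242 at a difference of -3.07), without the TNF pair (0.210 at -3.16) and without the count filter (0.106). Tnfaip3 had 281, 521 and 310 CPM in crel-/- and 14.9, 20.4 and 20.2 CPM in knock-in cells, a difference of -4.28 (SE 0.16, adjusted p = 0.00246). Nfkbie had 117, 61.8 and 142 CPM in crel-/- cells and 7.83, 7.17 and 7.50 CPM in knock-in cells (-3.82, SE 0.22, adjusted p = 0.00595, and 0.0718 without the IL-1b pair). These knock-in levels of Nfkbie were near that of unstimulated cells, 6.45 CPM in knock-in and 9.11 CPM in crel-/- cells.

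Of the nuclear members of the IkB family, which act on chromatin with NF-kB dimers, Bcl3 and Nfkbiz were lower. Bcl3 had 87.0, 50.7 and 103 CPM against 19.0, 8.45 and 19.7 CPM, a difference of -2.36 (SE 0.08, adjusted p = 1.05e-07), and Nfkbiz 461, 489 and 39.6 CPM against 149, 162 and 20.3 CPM (-1.46, SE 0.15, adjusted p = 0.0317). For Nfkbiz the order of the agents was the same in both genotypes, with IL-1b and LPS high and TNF low, so its groups overlap, and its call was lost without the IL-1b pair (adjusted p = 0.117) or the LPS pair (0.127). The third nuclear member, Nfkbid, was lower in 3 of 3 pairs (-1.13) but missed the threshold (adjusted p = 0.0737). Of the partners of A20, Tnip3 (-1.41) and Tnip1 (-0.85) were lower, and Tnip2 (0.19) and the linear ubiquitin protease Otulin (0.01) were not called. The remaining calls were Nfkbib (-0.87), the ribonuclease Zc3h12a (-0.89) and the deubiquitinase Cyld (-0.27). Tnfaip2, a TNF-induced gene, had 432, 316 and 392 CPM in crel-/- and 28.3, 40.3 and 48.7 CPM in knock-in cells. Its groups did not overlap, yet its adjusted p was 0.054 at a difference of -3.29.

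**Figure D2:**
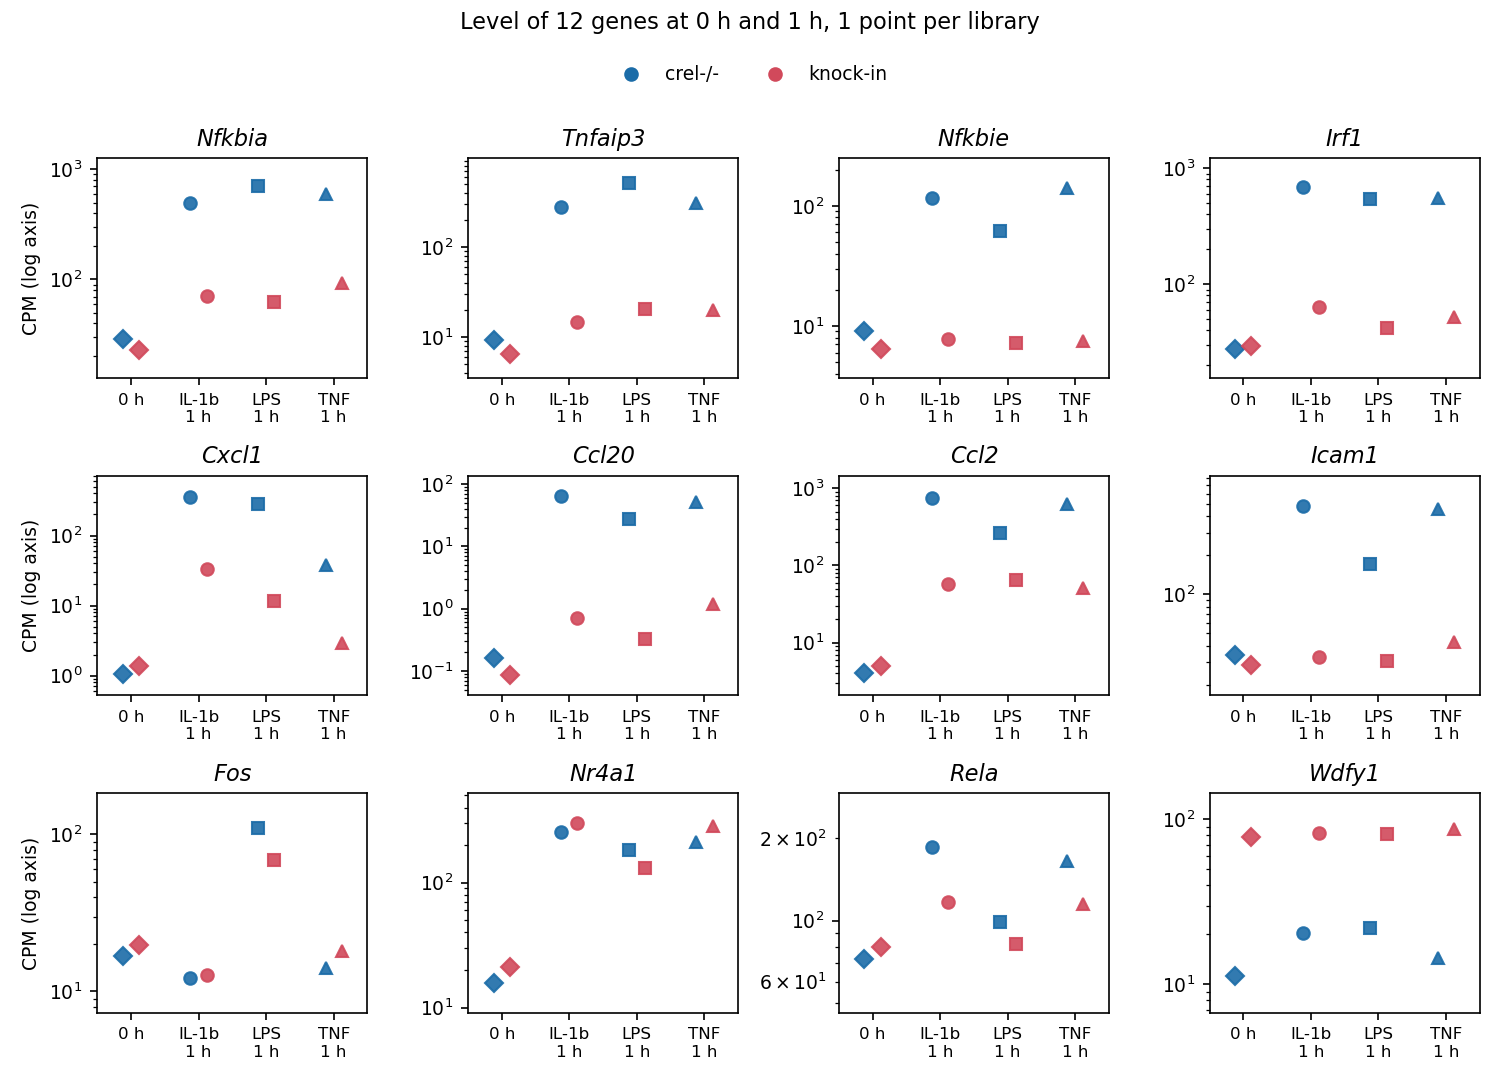
Level (CPM, log axis) of 12 genes in each library at 0 h and at 1 h under IL-1b, LPS and TNF, crel-/- and knock-in libraries in separate colours, 1 point per library. At 0 h the genotypes lie close for most of these genes. At 1 h the knock-in points of Nfkbia, Tnfaip3, Irf1 and Icam1 lie below every crel-/- point, while those of Nr4a1 do not.

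Of 21 chemokine genes listed, 20 were tested, 10 were lower and none higher, with a median difference of -2.08. Of the 20, 15 were lower in 3 of 3 pairs, as were 19.6% of all tested genes. Leaving out 1 pair gave 7 to 11 lower, and the fit without the agent block 3. Ccl20 (ENSMUSG00000026166.12, chromosome 1, 83116766 to 83119167) had the lowest difference in all 3 agent pairs. It had 65.3, 27.5 and 51.2 CPM in crel-/- cells, from 811, 282 and 551 counts, and 0.711, 0.321 and 1.18 CPM in knock-in cells, from 8, 3 and 14 counts. The knock-in levels were a few counts above the floor, and the difference was -5.98 (SE 0.17, adjusted p = 4.07e-08).

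Among the neutrophil chemokines, Cxcl1 had 356, 279 and 38.4 CPM in crel-/- and 33.1, 11.8 and 2.95 CPM in knock-in cells (-3.85, SE 0.31, adjusted p = 0.042). Each knock-in library lay below its own control, while the TNF control was close to the IL-1b knock-in library, and the adjusted p was 0.335 without the TNF pair and 0.113 without the count filter. Cxcl5 fell by 1.79 and Cxcl3 by 2.17. Cxcl2 was lower in each pair, 54.1, 288 and 19.5 CPM against 3.02, 51.7 and 1.01 CPM, with a difference of -3.01 that did not pass (adjusted p = 0.13). Cxcl2 was called without the LPS pair, at -4.19 (adjusted p = 3.66e-07), by DESeq2 (adjusted p = 5.86e-08) and by limma-voom (adjusted p = 0.00103).

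Of the monocyte chemokines, Ccl7 had 242, 187 and 218 CPM in crel-/- and 43.8, 27.4 and 49.1 CPM in knock-in cells, with no overlap (-2.44, SE 0.12, adjusted p = 0.00168). Ccl2 had 747, 262 and 621 CPM against 57.9, 63.9 and 50.6 CPM. Its groups did not overlap either, but the pairs were unequal, -3.69, -2.03 and -3.61, and the fitted difference of -3.14 had an adjusted p of 0.169, whereas DESeq2 called it (adjusted p = 2.02e-07) and so did edgeR without the LPS pair (adjusted p = 5.42e-09). The T cell chemokine Ccl5 was lower (11.5, 6.53 and 3.90 CPM against 0.978, 0.963 and 0.759 CPM, a difference of -2.99), as were Cxcl9 (-3.04) and the membrane-bound Cx3cl1 (-1.98). The call of Cxcl9 was lost without the IL-1b pair (adjusted p = 0.0633) or the TNF pair (0.203). The constitutive Cxcl12, which retains stem and stromal cells, fell by 0.22, and Ccl9 by 0.33. Ccl3 and Ccl4 went the other way without passing: Ccl3 had 9.10, 164 and 7.99 CPM in crel-/- and 7.47, 189 and 23.4 CPM in knock-in cells, a difference of 0.43, and Ccl4 a difference of 0.79.

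Of the 5 NF-kB subunit genes, Relb had the largest difference. It had 136, 62.1 and 119 CPM in crel-/- and 38.2, 23.3 and 37.0 CPM in knock-in cells, without overlap (-1.67, SE 0.08, adjusted p = 2.6e-06). With Rela and Rel, 3 of 5 were lower. Nfkb2 (-1.25, adjusted p = 0.0808) and Nfkb1 (-0.77, adjusted p = 0.382) were lower in 3 of 3 pairs without passing. Nfkb1 had 260, 110 and 202 CPM against 109, 99.2 and 113 CPM, so that its LPS pair hardly differed. Without that pair both were called (adjusted p = 9.42e-07 for Nfkb2 and 0.00456 for Nfkb1).

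Of 16 genes for TRAF adaptors, cIAP ubiquitin ligases and survival factors, which carry the TNF and IL-1 receptor signal or protect from cell death, 5 were lower and none higher (median -0.82, and -0.48 without the LPS pair). Birc3, encoding cIAP2, had 92.1, 57.1 and 106 CPM in crel-/- and 27.0, 17.5 and 28.3 CPM in knock-in cells (-1.80, SE 0.07, adjusted p = 1.71e-07). No knock-in value reached the lowest control value. Traf1 (-1.92), Traf3 (-0.75), Traf2 (-0.45) and the caspase 8 inhibitor Cflar (-0.27) were also lower. The smaller calls were lost with 1 pair left out: the adjusted p was 0.13 for Traf3 without TNF, 0.108 for Traf2 without IL-1b and 0.19 for Cflar without LPS. The stress gene Ier3 (-1.72, adjusted p = 0.377), Gadd45b (-1.69) and Birc2 (-1.07) were lower in 3 of 3 pairs and did not pass, although Ier3 did without the LPS pair (-1.07, adjusted p = 0.00154). The kinase Ripk2 did not pass either. Ripk2 had 304, 43.0 and 238 CPM in crel-/- cells and 14.1, 13.1 and 13.5 CPM in knock-in cells (-3.67, adjusted p = 0.206), the LPS control being the low one. Traf5 (0.01), Traf6 (-0.03) and Xiap (0.02) lay at 0 within their SE.

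Cytokines and growth factors were mixed: of 27 listed and 22 tested, 4 were lower and 2 higher, with a median of -0.25 (-0.12 without the IL-1b pair and -0.41 without the LPS pair). Lif, a cytokine of the interleukin 6 family, had 106, 54.5 and 64.0 CPM in crel-/- and 15.2, 8.56 and 14.5 CPM in knock-in cells (-2.53, SE 0.13, adjusted p = 0.000149). Il1b had 0.322, 126 and 6.32 CPM in crel-/- and 0, 4.82 and 1.10 CPM in knock-in cells (-4.33, SE 0.38, adjusted p = 0.00783). Nearly all of its signal was in the LPS pair. Il1a rested on LPS too: the 3 crel-/- libraries held 151 counts and the knock-in libraries 1 count, a ratio of 146 with a 95% counting interval of 25.9 to 5824, and both IL-1b libraries were at 0. Il6 was low in all 6 libraries and lower in the knock-in (-1.35, adjusted p = 0.0281). The EGF family ligand Areg (1.55, SE 0.38, adjusted p = 0.0389), at 0.402 to 0.780 CPM in crel-/- and 1.10 to 2.35 CPM in knock-in cells, and the activin subunit Inhba (0.39) were higher. The calls of Il6 and Areg were lost whichever pair was left out (adjusted p of 0.0736 to 0.154 and of 0.105 to 0.173), that of Il1b without the IL-1b pair (0.0631) and that of Il1a without the LPS pair (0.397). The call of Inhba was lost without the IL-1b pair, without the TNF pair and with all 20 libraries in the fit.

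Csf1, the growth factor of macrophages, had 1436, 420 and 1165 CPM in crel-/- and 151, 147 and 191 CPM in knock-in cells. Csf1 stood at 150 CPM in unstimulated crel-/- and at 138 CPM in unstimulated knock-in cells. The IL-1b and LPS knock-in libraries were near these values and the TNF library was above both. The groups of Csf1 did not overlap at 1 h. Its adjusted p was nevertheless 0.206 at a difference of -2.47, with the LPS pair at -1.52 and the IL-1b pair at -3.25, and 0.0444 without the LPS pair. DESeq2 (adjusted p = 3.92e-05) and limma-voom (0.00164) called Csf1. Tnf had 2.25, 360 and 20.5 CPM against 1.87, 66.1 and 8.09 CPM (-2.03, adjusted p = 0.19). Ifnb1, which encodes interferon beta, was measured above the floor only under LPS, at 10.3 CPM in crel-/- and 15.8 CPM in knock-in cells (0.60, adjusted p = 0.19).

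Of 17 adhesion and antigen presentation genes, 3 were lower and none higher (median -0.35, and -0.17 without the IL-1b pair). Sele, the endothelial leukocyte adhesion molecule, had 24.1, 3.12 and 22.9 CPM in crel-/- and 1.16, 0.428 and 0.928 CPM in knock-in cells (-4.32, SE 0.22, adjusted p = 2.6e-06). Selp (-2.46) and the costimulatory receptor Cd40 (-1.80) were lower at levels of a few CPM, and lost their calls without the TNF pair (adjusted p = 0.124 and 0.0725). Icam1, a ligand of leukocyte integrins, had 479, 171 and 454 CPM in crel-/- and 32.8, 30.7 and 42.5 CPM in knock-in cells. At 0 h it had 34.1 CPM in crel-/- and 28.6 CPM in knock-in cells. The IL-1b and LPS knock-in libraries lay between these values and the TNF library above both. Icam1 differed by -3.29 (adjusted p = 0.0952). Vcam1 had 1052, 434 and 772 CPM against 157, 119 and 161 CPM, a difference of -2.30 (adjusted p = 0.0654). Without the LPS pair both were called (adjusted p = 4.25e-05 and 0.00247), DESeq2 called both (adjusted p = 1.15e-13 for Icam1 and 4.53e-17 for Vcam1), and so did limma-voom (9.68e-05 for each). The antigen presentation genes differed little: B2m by -0.14, H2-D1 by -0.12 and Tap2 by -0.13, none called.

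Interferon transcription factors and targets were represented by 31 genes, of which 2 were lower and none higher, with a median of -0.26 that turned to 0.12 without the IL-1b pair. Such a count is near the share over all tested genes, 3.72% lower. Irf1 (ENSMUSG00000018899.14, chromosome 11, 53770014 to 53778374) had 691, 544 and 549 CPM in crel-/- and 63.9, 41.8 and 51.9 CPM in knock-in cells. The groups were far apart and the 3 pairs close to each other, at -3.43, -3.69 and -3.40. Its difference of -3.51 (SE 0.06) had an adjusted p of 5.14e-09. Irf2 fell by 0.41, with an adjusted p of 0.122 without the IL-1b pair and of 0.0828 without the TNF pair. The other 29 genes were not called. Of the 31, 7 were lower in 3 of 3 pairs and none higher, where 19.6% of all tested genes were lower. The pairs differed over the list: the IL-1b pair had a median of -0.78, the LPS pair of -0.12 and the TNF pair of 0.39. Ifit1, an antiviral effector, had 223, 135 and 51.6 CPM in crel-/- and 119, 144 and 71.1 CPM in knock-in cells, with 58.5 and 68.1 CPM at 0 h. The IL-1b control library was the high one for this gene, as it was for Isg15 (145, 92.9 and 34.8 CPM against 79.9, 74.7 and 54.1 CPM) and Oasl2 (186, 86.8 and 45.2 CPM against 93.5, 77.9 and 70.7 CPM). The GTPase Gbp5 had 36.9, 5.07 and 14.6 CPM against 1.07, 2.14 and 0.590 CPM (-3.90, adjusted p = 0.182, and 9.02e-07 without the LPS pair).

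Among the 23 lists the largest share of calls was in the acute phase and innate effector genes, with 14 of 19 tested (20 listed) lower and none higher, and a median of -1.06 (-1.74 without the LPS pair). With 1 pair left out 12 or 13 were lower, and without the agent block 5. Tlr2 (ENSMUSG00000027995.10, chromosome 3, 83836272 to 83841767), which belongs to this group, had 278, 253 and 348 CPM in crel-/- and 28.6, 32.7 and 43.8 CPM in knock-in cells (-3.07, SE 0.07, adjusted p = 2.04e-08). Its knock-in levels after 1 h were within the range of the unstimulated libraries, 44.6 CPM in crel-/- and 33.9 CPM in knock-in cells, or just below. The bacterial sensor Nod2 (-3.34) was lower too, from 5.88, 6.92 and 6.41 CPM to 0.978, 0.535 and 0.337 CPM. Complement C3 had 27.4, 31.0 and 28.3 CPM in crel-/- and 2.31, 2.68 and 2.36 CPM in knock-in cells (-3.56, SE 0.12, adjusted p = 1.05e-07), and the genotypes already differed at 0 h, with 12.0 and 2.97 CPM. Sod2, the mitochondrial superoxide dismutase, had 64.7, 67.3 and 84.8 CPM against 31.0, 34.8 and 37.9 CPM (-1.06, SE 0.06, adjusted p = 1.04e-05).

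After Saa3, which had no count in the knock-in libraries, Gpr84, Clec4e and Acod1 had the lowest differences of this group, and all of them are known mainly from myeloid cells. Acod1, the enzyme that makes itaconate, had 0.483, 104 and 11.3 CPM in crel-/- and 0, 3.75 and 0.169 CPM in knock-in cells (-4.92, SE 0.18, adjusted p = 2.04e-07). The lectin receptor Clec4e had 0.885, 73.6 and 39.6 CPM against 0.0889, 1.93 and 1.01 CPM (-5.21), and the fatty acid receptor Gpr84 1.05, 20.6 and 17.1 CPM against 0.0889, 0.214 and 0.337 CPM (-5.78). All of them were high under LPS and TNF and at about 1 CPM or less under IL-1b, where Tlr2, Nod2 and C3 were not low. Macrophage markers were present in every library. Their 15 genes were all tested and none was at 0, with a summed level of 2812 to 5091 CPM in crel-/- and 2795 to 4418 CPM in knock-in libraries. Of them 1, the lysozyme gene Lyz2 (-0.38, adjusted p = 0.00335), was lower, and the median was -0.06. Csf1r had 402, 272 and 560 CPM against 363, 283 and 499 CPM, and Adgre1 266, 186 and 298 CPM against 270, 227 and 349 CPM, with the LPS libraries lowest in both genotypes. In bulk RNA fewer cells of a type and less RNA per cell cannot be told apart. The part of these cells in the differences above was not tested.

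The other calls of the group were Saa3, Ptx3, Steap4, the metallothioneins Mt2 (-0.96) and Mt1 (-0.33), the prostaglandin E synthase Ptges (-0.69) and complement C1s1 (-0.45). Saa3, serum amyloid A3, held 28 counts over the crel-/- libraries and 0 over the knock-in libraries, so that it was at least 9.05-fold higher in crel-/- cells against a floor of 3 counts over the group. Its adjusted p was 0.0182, and 0.0794 without the TNF pair. The pentraxin Ptx3 had 574, 330 and 445 CPM against 148, 124 and 154 CPM (-1.64), and the metalloreductase Steap4 16.1, 7.31 and 11.9 CPM against 3.47, 3.53 and 3.54 CPM (-1.74). Both groups were apart, and Steap4 in knock-in cells had its unstimulated level (3.55 and 3.65 CPM at 0 h).

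Further genes with large differences lay outside these groups. Rnd1 had 170, 45.7 and 154 CPM in crel-/- and 4.45, 2.46 and 6.66 CPM in knock-in cells (-4.75, SE 0.16, adjusted p = 8.16e-05). Icosl, a costimulatory ligand for T cells, had 25.3, 18.3 and 36.3 CPM against 2.49, 1.28 and 1.77 CPM (-3.84, SE 0.18, adjusted p = 1.34e-06). In the knock-in it lay below its unstimulated levels of 4.43 and 4.67 CPM. Also lower were the matrix protein gene Cilp2 (-3.26, with an adjusted p of 0.131 without the TNF pair), the GTPase gene Gem (-2.20) and the cholesterol hydroxylase gene Ch25h (-1.49).

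**Figure D3:**
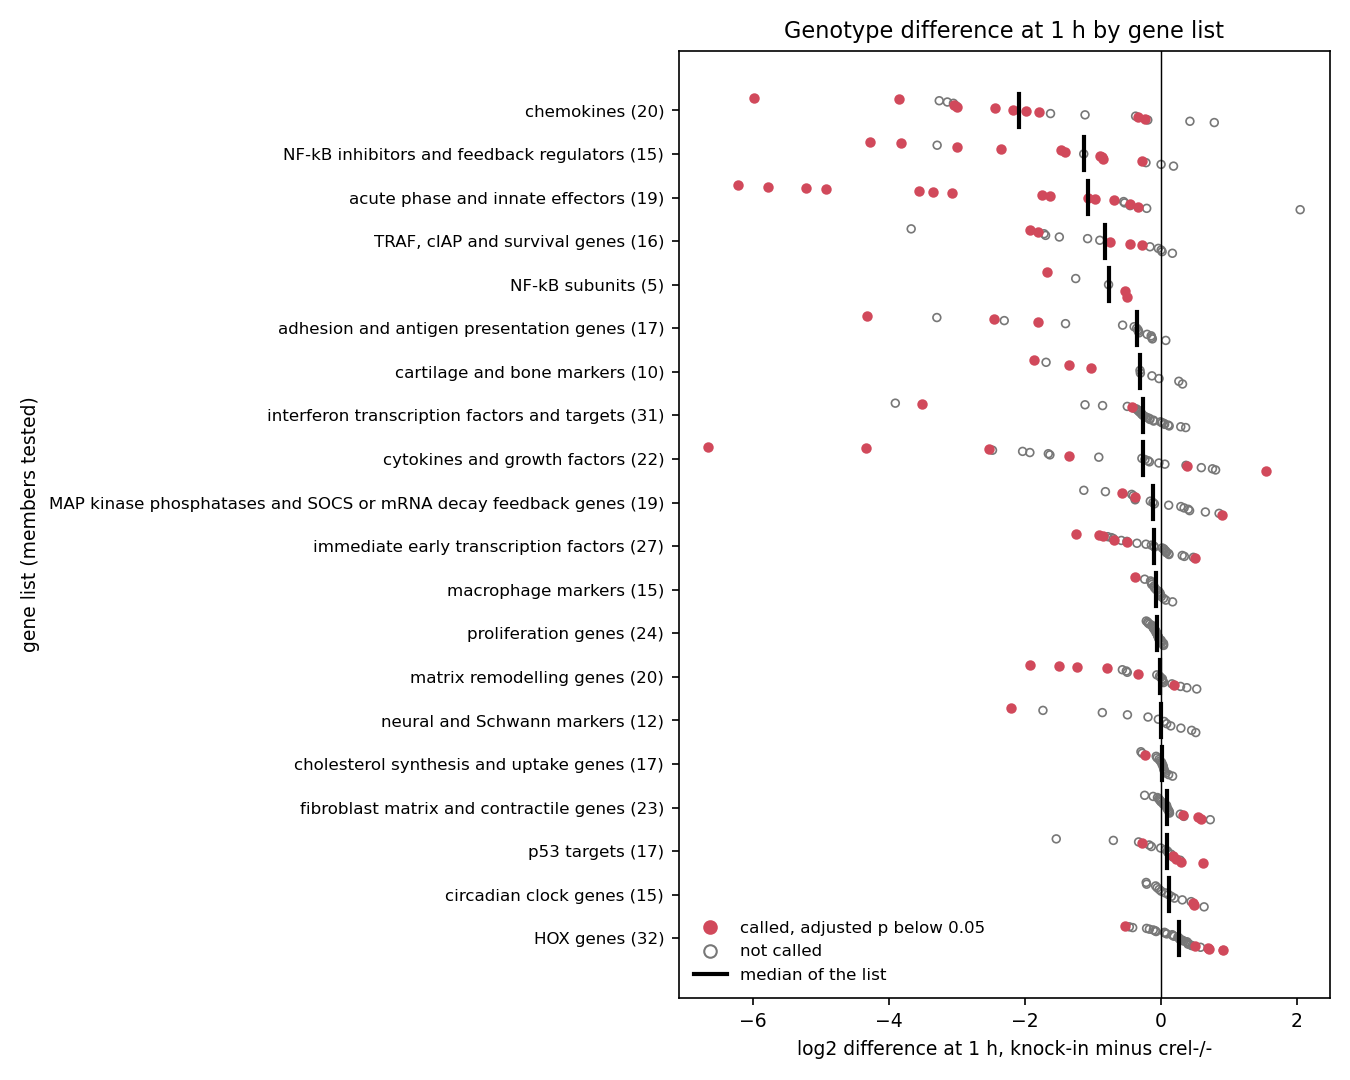
Log2 difference at 1 h (knock-in minus crel-/-, horizontal axis) of the tested genes in each list with 5 or more, called genes filled, and the median of each list as a bar. The NF-kB inhibitors, chemokines and acute phase genes have medians of -1.13, -2.08 and -1.06, whereas those of the immediate early, matrix, fibroblast and proliferation lists lie between -0.10 and 0.09.

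Immediate early transcription factors are induced by signalling kinases without new protein synthesis. Of 27 genes, 5 were lower and 1 higher, against 3.72% and 2.64% of all genes, with a median of -0.10 that turned to 0.078 without the LPS pair. Nr4a1, an orphan nuclear receptor, had 256, 184 and 213 CPM in crel-/- and 300, 132 and 285 CPM in knock-in cells (0.07, SE 0.25, adjusted p = 0.931). Fos, whose promoter is printed above, had 12.2, 110 and 14.1 CPM against 12.7, 69.2 and 18.1 CPM (-0.22, SE 0.26, adjusted p = 0.75). In both, the genotypes overlapped and the LPS pair was the one lower in the knock-in. Fosb (0.08), Jun (0.05) and Myc (0.12) had small differences, and Egr1 (-0.35) had 84.7, 544 and 74.3 CPM against 98.3, 189 and 98.6 CPM, lower under LPS and higher under the other agents. A p above the threshold does not show that the genotypes were equal here: the SE of Egr1 was 0.61. The calls were Fosl1 (-0.91), Maff (-0.85), Egr3 (-0.68), Nr4a2 (-0.50) and Egr4 (-1.25) for lower and Mafk (0.50) for higher. Of these, Egr4 lost its call without the IL-1b pair (adjusted p = 0.128), Egr3 without the LPS pair (0.0839) and Maff and Mafk without the TNF pair (0.12 and 0.051). Junb had 148, 482 and 208 CPM against 95.8, 202 and 155 CPM (-0.78, adjusted p = 0.273, and 0.00211 without the LPS pair). Nr4a1 without the LPS pair was higher by 0.33 (adjusted p = 0.0227).

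Of 19 genes for MAP kinase phosphatases, SOCS proteins and mRNA decay factors, which end such signals, 2 were lower and 1 higher (median -0.11). The phosphatase Dusp4 was higher, 17.0, 51.9 and 41.0 CPM in knock-in against 8.37, 37.0 and 16.4 CPM in crel-/- cells (0.90, SE 0.17, adjusted p = 0.0483). It was also higher at 0 h (6.36 against 2.90 CPM), and without the IL-1b pair its adjusted p was 0.302. Dusp1 was higher in 3 of 3 pairs, 28.3, 233 and 63.0 CPM against 18.1, 167 and 20.2 CPM, without passing (0.86, adjusted p = 0.37), and passed without the TNF pair (0.54, adjusted p = 0.00279). Socs2 (-0.57) and Zfp36l1 (-0.38) were lower, at adjusted p of 0.0765 and 0.0607 without the IL-1b pair, and the mRNA decay factor Zfp36 had 74.7, 815 and 128 CPM in crel-/- and 37.1, 286 and 74.1 CPM in knock-in cells (-1.13, adjusted p = 0.111, and 0.000169 without the LPS pair).

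Matrix remodelling genes had 5 lower and 1 higher of 20 tested (21 listed, median -0.01). Lower were the metalloproteinases Mmp9 (26.8, 20.5 and 8.36 CPM against 5.96, 6.42 and 2.28 CPM, a difference of -1.92) and Mmp3 (-1.23), the hyaluronan synthase Has1 (-1.49), the hyaluronan-binding Tnfaip6 (-0.79) and the inhibitor Timp1 (-0.34). Without the TNF pair the adjusted p of Has1 was 0.0729. The plasminogen activator Plat was higher by 0.20. Its call was lost with DESeq2, limma-voom, either other scaling, all 20 libraries or no agent block. It was also lost without the IL-1b pair or the TNF pair. Of the defining fibroblast markers, the collagens Col1a1 and Col1a2 stood at 19607 to 25118 and 13176 to 16820 CPM in the 6 libraries. Of 23 tested fibroblast matrix and contractile genes (25 listed, 2 of them older symbols of tested genes), 3 were higher, Thy1 (0.60), Cnn1 (0.55) and Tagln (0.34), and none lower (median 0.09). Cnn1 and Tagln had adjusted p of 0.139 and 0.107 without the LPS pair. Col1a1 differed by -0.05 and Pdgfra by 0.04, neither called.

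In the lists for proliferation, p53 targets, the circadian clock, cholesterol and HOX genes, called differences lay between -0.53 and 0.91. None of 24 proliferation genes was called at an adjusted p below 0.05 in edgeR's test. Their median was 0.13 in the IL-1b pair, 0.01 in the LPS pair and -0.36 in the TNF pair, and -0.34 at 0 h. Of 17 p53 targets, 4 were higher, namely Plk3 (0.62), Mdm2 (0.30), Ccng1 (0.23) and Trp53inp1 (0.18), and Cdkn1a was lower (-0.27), where 2.64% of all genes were higher and 3.72% lower. DESeq2 called 1 of the 17 lower and none higher. Of 15 circadian clock genes, Nr1d1 (0.50) and Per1 (0.48) were higher, and of 17 cholesterol synthesis and uptake genes Hmgcs1 was lower (-0.23). HOX genes, which keep the body position of a fibroblast, had 4 higher and 1 lower of 32 tested (39 listed): Hoxb8 (0.91), Hoxb9 (0.72), Hoxb3 (0.69), Hoxc6 (0.51) and Hoxa13 (-0.53). Their median was 0.27 at 1 h and 0.44 at 0 h. In these lists, calls were lost without the IL-1b pair for Per1 (adjusted p = 0.108), without the LPS pair for Ccng1 (0.188) and without the TNF pair for Trp53inp1 (0.149), Plk3 (0.0738), Nr1d1 (0.0726), Hmgcs1 (0.22), Hoxb3 (0.0688) and Hoxc6 (0.0559).

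The called markers of cell types other than fibroblasts and macrophages were lower in knock-in cells at 0 h as well. Of the cartilage and bone markers, 10 of 13 were tested and 3 were lower: Col2a1 (-1.86), Col9a1 (-1.35) and Comp (-1.02). Col2a1 had 22.6, 18.2 and 27.5 CPM against 5.16, 6.21 and 7.59 CPM at 1 h and 45.6 against 15.2 CPM at 0 h. Of 12 tested neural and Schwann markers, Ncan was lower (-2.21, adjusted p = 0.0456), with 11.4 against 2.21 CPM at 0 h. The adjusted p was 0.214 without the LPS pair for Ncan and 0.172 without the IL-1b pair for Col9a1. The glial filament Gfap did not pass, with 11.1, 6.82 and 30.4 CPM against 1.07, 0.963 and 14.6 CPM at 1 h (-1.73, adjusted p = 0.271, and -3.14 at 0.000273 without the TNF pair) and 54.1 against 7.21 CPM at 0 h. The summed level of the cartilage and bone list was 1816 to 1942 CPM in crel-/- and 1547 to 1780 CPM in knock-in libraries, and that of the neural list 29.8 to 77.1 and 22.6 to 59.0 CPM. Endothelial, epithelial and skeletal muscle lists had 4 of 9, 4 of 8 and 2 of 10 genes tested and no call, the endothelial sum being 19.6 to 23.2 CPM in crel-/- and 21.9 to 27.0 CPM in knock-in libraries. The part of such cells in the differences was not tested.

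The 370 genes higher in knock-in cells had a median difference of 0.40 and a median level of 53.4 CPM, against -0.54 and 33.2 CPM for the 521 lower genes. Among those past 1 on the log2 scale the median levels were 2.74 CPM for higher and 4.86 CPM for lower genes. The 10 with the largest difference were taken from genes with at least 5 CPM in knock-in cells. Of these 10, Wdfy1 (ENSMUSG00000073643.9, chromosome 1, 79702262 to 79776143), an endosomal adaptor of Toll-like receptor signalling, led. It had 20.4, 21.9 and 14.5 CPM in crel-/- and 82.9, 81.3 and 86.9 CPM in knock-in cells (2.15, SE 0.14, adjusted p = 0.00125), and 11.1 against 78.2 CPM at 0 h. The knock-in level was the same before and after stimulation within a few CPM. The other 9 were Kcne4 (1.62), Dmrt2 (1.59), Ighm (1.35), Tnnt2 (1.34), Kank4 (1.26), Ctla2a (1.24), Cntnap3 (1.23), Ankrd1 (1.16) and Syt13 (1.09). Syt13, a synaptotagmin, had 12.3, 13.1 and 15.9 CPM against 27.3, 26.1 and 34.1 CPM, and 16.9 against 32.4 CPM at 0 h. The potassium channel subunit Kcne4 had 4.10, 8.97 and 5.76 CPM against 17.2, 17.4 and 21.9 CPM, and 10.6 against 19.5 CPM at 0 h. Ankrd1, a muscle ankyrin repeat gene, had the smallest 0 h difference of these 10, 2.02 against 2.55 CPM. Without the TNF pair, Kcne4 and Ankrd1 had adjusted p of 0.105 and 0.0638.

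The 0 h pair shows which of the 1 h differences preceded stimulation. Of the 521 genes lower at 1 h, 346 were lower at 0 h (66.4%, against 48.4% of all tested genes), and their median difference was -0.12 at 0 h against -0.54 at 1 h. Of the 370 higher at 1 h, 92.7% were higher at 0 h, with a median of 0.33 against 0.40 at 1 h. The 2 directions thus had a different past: the higher genes had most of their difference before stimulation and the lower genes little of it. These are 2 libraries without a replicate, so no test attaches to the 0 h values. Among the 147 genes lower by at least 1, the median at 0 h was -0.16.

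**Figure D4:**
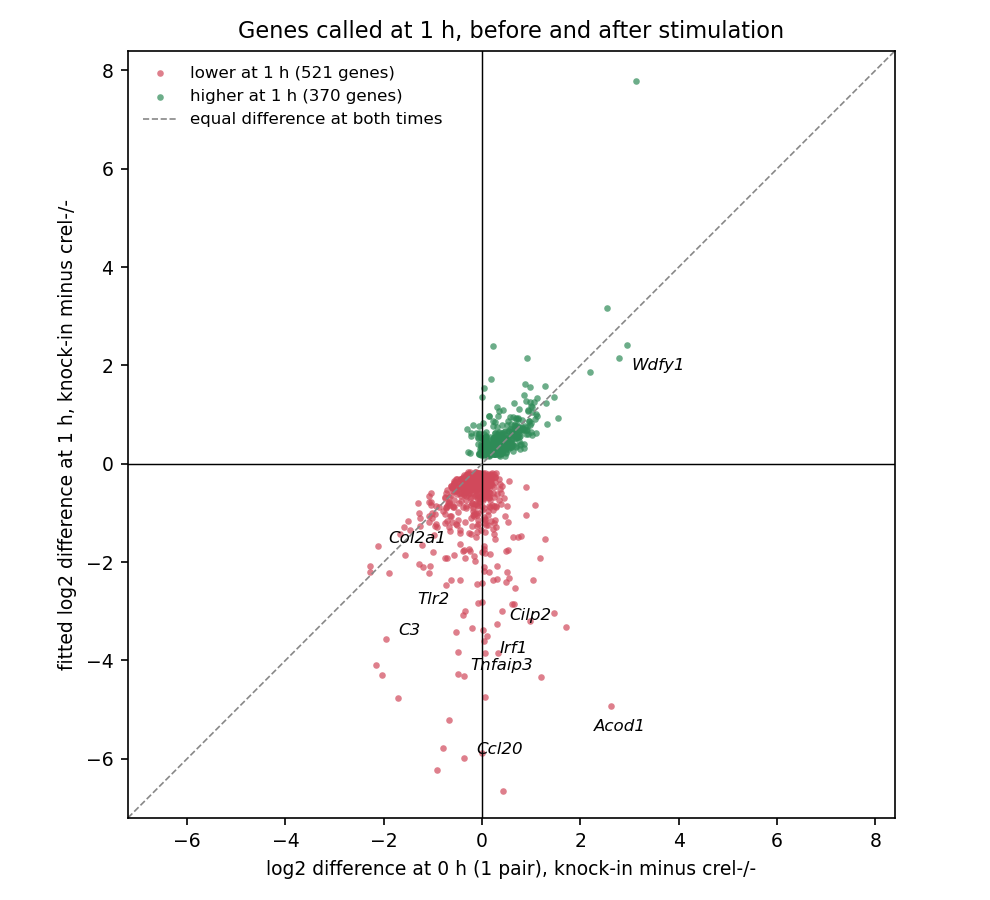
Log2 difference (knock-in minus crel-/-) at 0 h (horizontal axis, 1 pair) against that at 1 h (vertical axis, fitted over 3 pairs) for the 521 lower and 370 higher genes. Genes higher at 1 h spread along the diagonal, and those far below 0 at 1 h form a column near 0 at 0 h.

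The response to stimulation was taken as the mean of the 3 agents at 1 h against 0 h in each genotype. In crel-/- cells Tnfaip3 rose by 5.32, Irf1 by 4.44, Nfkbia by 4.37, Ccl7 by 5.45, Ccl2 by 7.07 and Tlr2 by 2.72, all among the 15 genes called higher in that genotype (0.107% of tested genes). The single gene called lower was Txnip (0.00713%). Without the LPS library 72 genes were called higher. In knock-in cells the fitted values were 1.5 for Tnfaip3, 0.84 for Irf1, 1.72 for Nfkbia, 3.13 for Ccl7, 3.52 for Ccl2 and 0.05 for Tlr2. No gene was called for the response in knock-in cells by edgeR, with 500 higher and 290 lower at an unadjusted p below 0.05, and DESeq2 called 81 higher and 5 lower. Nfkbie (3.55 and 0.22) and Icam1 (3.43 and 0.31) had a fitted response in crel-/- cells and nearly none in knock-in cells. By contrast, Nr4a1 (3.78 and 3.51), Fosb (3.67 and 4.09) and Jun (1.71 and 1.56) had like values in both. All of these responses share the 1 baseline library of their genotype, which stood with the TNF libraries in mt-Cytb and Comp as given above. For IL-1b and LPS, the response and that difference between sets of libraries cannot be told apart.

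The test of the difference at 1 h against that at 0 h is the test of an unequal response. With 1 pair at 0 h, the error was estimated from the 3 pairs at 1 h and from other genes. The error of the 0 h pair was taken to be alike and could not be measured. This test called 19 genes, all lower (0.135%), of which 13 were also called lower at 1 h. Acod1 (-8.91, SE 0.79, adjusted p = 0.00147), Icosl (-3.91, SE 0.39, adjusted p = 0.00372), Irf1 (-3.60, SE 0.14, adjusted p = 6.4e-06), Tlr2 (-2.68, SE 0.14, adjusted p = 5.78e-05) and Bcl3 (-2.58, SE 0.23, adjusted p = 0.00147) had the lowest values. Acod1 at 0 h rested on 0.0806 and 1.44 CPM, the former below the floor. Gem, Birc3, Relb, Sik1, Sdc4 and Sod2 were also called. The 6 not called lower at 1 h were Gm27483, Hspg2, Hic1, Plec, Col5a3 and Col6a3. Of these, Gm27483 was at 1.70 at 0 h and -0.42 at 1 h, and the other 5 were at 0.60 to 0.79 at 0 h and between -0.036 and 0.050 at 1 h, so that their value came from the 0 h pair. The count varied with the libraries: 36, 81 and 72 genes were lower and 8, 6 and 1 higher without the IL-1b, LPS and TNF pairs, and 4 were lower with all 20 libraries in the fit, an alternative chosen after the data were seen.

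A set of early induced genes was also chosen, from the crel-/- libraries at 0 and 0.5 h alone. The choice favours genes that rise in crel-/- cells, and no set was chosen in knock-in cells. The share lower at 1 h is thus a description and not a separate test. In crel-/- cells at 0.5 h, 57 genes were at least 1 above 0 h under all 3 agents, with a mean of at least 5 CPM. At 1 h, 20 of them were lower in knock-in cells (35.1%, against 3.72% of all tested genes) and 2 higher, Trib1 (0.76) and Dusp4 (0.90), with a median of -0.72. The 20 lower genes included Tnfaip3, Cxcl1, Irf1, Tlr2, Nfkbia, Ccl7, the kinase gene Map3k8 (-1.84), the proteoglycan Sdc4 (-1.26), Pim1 (-0.93) and Cebpb (-0.86). Sdc4 had 526, 550 and 584 CPM in crel-/- and 227, 218 and 246 CPM in knock-in cells, with 140 and 122 CPM at 0 h, so it rose in both genotypes. Of the 57 genes, 21 lay within 0.5 of equality, among them Jun, Nr4a1, Fosb, Atf3 (0.35) and Errfi1 (-0.19). Within the same early set, 33 genes were still at least 1 above 0 h under all agents at 1 h in knock-in cells, and 49 in crel-/- cells. With a threshold of 2 in place of 1 the set held 29 genes, of which 8 were lower (27.6%) at a median of -0.78.

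The kB consensus was found between 250 bases upstream and the start site in 65 of the 400 lower genes with a promoter in the table (16.2%), against 615 of 10632 tested genes (5.78%) and 14 of 271 higher genes (5.17%). Among the genes lower by at least 1 it was found in 31 of 105 (29.5%). The AP-1 site TGANTCA, searched on both strands in the same window, was found in 36 of the 400 lower genes (9%) and in 604 of the 10632 (5.68%). Of the genes induced at 0.5 h, 8 of the 14 lower ones with a promoter had a kB match (57.1%). So did 6 of the 25 without a call (24%): Cxcl10, Cxcl2, Fos, Fosb, Ier3 and Nfkbid. Genes without a call were not all alike in the genotypes. Cxcl10 (-3.26), Cxcl2 (-3.01), Ier3 (-1.72) and Nfkbid (-1.13) were lower in 3 of 3 pairs, while Fos (-0.22) and Fosb (0.08) lay near 0. Several lower genes had no match in this window, among them Bcl3, Birc3, Acod1, Clec4e, Gpr84, Icosl, Sele and Lif. The match lay at -29 to -20 in Nfkbia, -106 to -97 in Nfkbie, -13 to -4 in Irf1, -80 to -71 in Ccl20 and -214 to -205 in Fos, counted back from -1 at the base before the start site. Tnfaip3 had a pair of matches, at -125 to -116 and -12 to -3, and Cxcl1 and Tlr2 each an overlapping pair, at -71 to -61 and -173 to -163.

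The difference at 1 h was next set against the neighbouring times. Against 0.5 h, 7 genes had a lower difference at 1 h and none a higher one (0.0499% and 0), and all of them were among the 521: Nod2 (-3.22), Icosl (-2.17), Ch25h (-1.45), Birc3 (-1.08), Tlr2 (-1.0), Tnip1 (-0.81) and Sod2 (-0.67). Birc3 was at -0.96, -0.54 and -0.65 under IL-1b, LPS and TNF at 0.5 h and at -1.76, -1.69 and -1.90 at 1 h. Without the libraries of IL-1b, LPS and TNF, the count of genes lower was 3, 28 and 5. Tnfaip3 followed another course. At 0.5 h its pairs were at -6.09, -4.60 and -5.51. They were at -4.23, -4.66 and -3.93 by 1 h and at -3.01, -2.69 and -2.94 by 3 h, and its change from 1 h to 3 h was 1.41 (SE 0.19, adjusted p = 0.0332). Its levels in knock-in cells were 9.64, 8.79 and 13.9 CPM at 0.5 h and 11.5, 184 and 31.7 CPM at 3 h, so that the LPS library alone reached a high level.

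From 1 h to 3 h, 44 genes moved down in the knock-in relative to crel-/- cells (0.314%) and 26 moved up (0.185%). Of the 44, 6 were already lower at 1 h, and of the 26, 7 were. Without the libraries of IL-1b, LPS and TNF, 8, 1 and 1 genes moved down and 10, 0 and 2 up. Those moving up over all agents included Egr4 (4.17), the chemokine receptor Cxcr4 (2.53), Gem (1.75), Tnfaip3, the RNA-binding Mex3b (1.11) and Bcl3 (1.03). Gem had lost most of its difference by 3 h, with pairs of -0.34, -0.53 and -0.45 after -2.16, -2.45 and -2.01 at 1 h. Its level went from 124, 78.9 and 80.2 CPM to 19.5, 199 and 46.6 CPM in crel-/- cells. In knock-in cells it went from 27.6, 14.3 and 19.7 CPM to 15.4, 137 and 34.2 CPM. Nr3c2, the mineralocorticoid receptor, had the largest move down (-3.43, SE 0.30, adjusted p = 0.00636). Its level was 8.29, 7.80 and 8.45 CPM in crel-/- and 5.51, 7.06 and 6.49 CPM in knock-in cells at 1 h, and 52.8, 62.2 and 37.1 CPM against 2.55, 6.88 and 2.30 CPM at 3 h, so that it was a difference that 1 h did not yet show. Over the 521 genes lower at 1 h, 93.1% were lower in the mean of the pairs at 0.5 h and 90.0% at 3 h, and over the 370 higher genes 97.6% and 93.0% were higher. The LPS libraries at 3 h had scaling factors of 0.723 and 0.732, against 1.00 to 1.04 at 1 h.

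**Figure D5:**
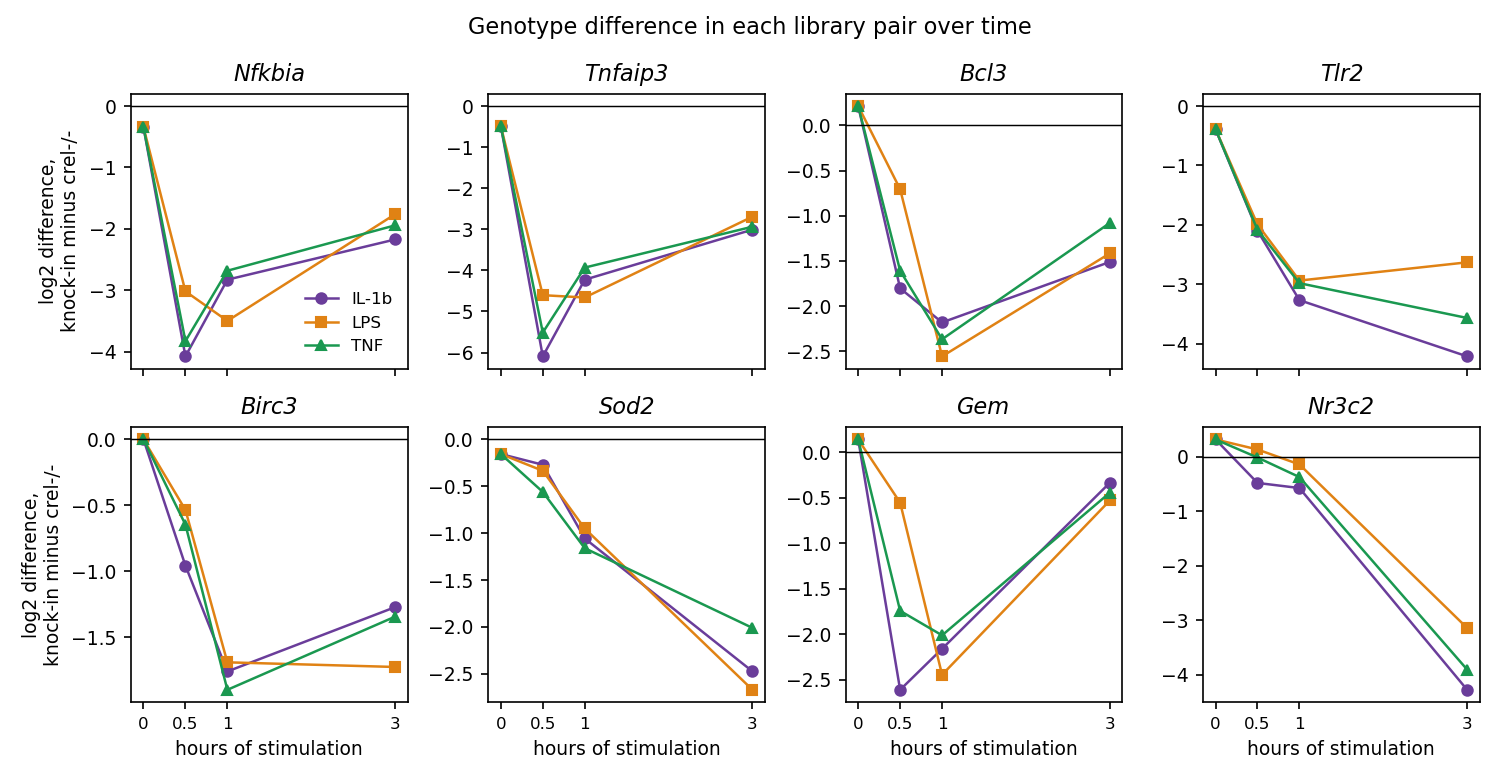
Log2 difference (knock-in minus crel-/-) of 8 genes at 0, 0.5, 1 and 3 h, 1 line per agent, all lines of a gene starting from the same 0 h pair. Tnfaip3 is lowest at 0.5 h or, under LPS, at 1 h, Birc3 and Sod2 are lower at 1 h than at 0.5 h under each agent, and Nr3c2 is below -3 at 3 h alone.

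The agent pairs were alike in size. On the log2 scale, 413 genes were lower and 176 higher by at least 1 in the IL-1b pair (2.95% and 1.26%), 335 and 170 in the LPS pair (2.39% and 1.21%) and 354 and 190 in the TNF pair (2.52% and 1.35%). In all 3 pairs at once, 101 were lower (0.72%) and 13 higher (0.0927%), and 193, 144 and 132 genes were lower in the IL-1b, LPS or TNF pair alone. Each pair is 1 library against 1, without a test. Across the 14023 genes the differences of the pairs had Pearson correlations of 0.423 for IL-1b with LPS, 0.485 for IL-1b with TNF and 0.460 for LPS with TNF, genes not being independent of each other. The extremes of each pair were taken among genes with at least 5 CPM in the higher library. After Ccl20, the lowest differences were Rnd1 (-5.20) and Gbp5 (-4.89) under IL-1b, Gpr84 (-5.71) and Il1a (-5.64) under LPS, and Clec4e (-5.06) and Gpr84 (-5.05) under TNF. The highest were CT010467.1 (2.25), Gjb2 (2.10) and Kcne4 (2.02) under IL-1b, Wdfy1 (1.88), Kank4 (1.82) and Arhgap25 (1.69) under LPS, and Wdfy1 (2.57), Rgs1 (2.51) and Dmrt2 (1.98) under TNF.

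The test of the TNF pair against the IL-1b and LPS pairs called 12 genes lower (0.0856%) and 19 higher (0.135%). None of these was among the genes called over the 3 agents. A TNF pair that departs from the others enters the error of that fit, so this follows in part from the design. For TNF against the other agents, DESeq2 called no gene in either direction. At an unadjusted p below 0.05 it had 21 lower and 36 higher, and edgeR 419 and 582. Of the 12, 7 were mitochondrial transcripts, such as mt-Cytb with 2699, 3169 and 1987 CPM in crel-/- and 2730, 3182 and 1250 CPM in knock-in cells (-0.68, SE 0.05, adjusted p = 7.14e-05). The 9 tested mitochondrial genes held 1.40% and 1.39% of counts under IL-1b, 1.63% and 1.62% under LPS and 1.10% and 0.720% under TNF in crel-/- and knock-in cells. The TNF knock-in library was thus the low one at 1 h. The TNF pair of mt-Cytb was at 0.43 at 0.5 h and -0.47 at 3 h, and the part of this share in the other calls was not tested. Among the 19 higher were Gfap (2.09), Ccl3 (1.44), the proton pump subunit Atp6v0d2 (1.39), Ccl4 (1.26), Apod (1.23) and the interferon-induced Bst2 (1.11). Bst2 had 219, 154 and 89.0 CPM in crel-/- and 131, 106 and 123 CPM in knock-in cells, with the IL-1b control library high, as for the interferon targets above.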

How the data were processed

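RNA was measured in 20 libraries, 1 per genotype, agent and time, of which the 6 at 1 h enter the main comparison. Per the labels' protocols, polyA RNA libraries were made with a stranded kit (1 ug of RNA, 12 PCR cycles) and sequenced as single 50 nt reads. Build mm10 and the programs STAR, cutadapt 1.12, featureCounts 1.5.1 and DESeq2 are named, per the submitters' processing notes. How strand and multiply mapped reads were treated, and which annotation release was used, is not given in the sources used here, so values of near-identical, overlapping or antisense genes are uncertain. The authors deposited whole-number counts per gene, not normalized, with gene positions. Of 45706 genes, 45143 (98.8%) matched a symbol.

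From these counts, genes reaching 1 CPM in 2 or more of 20 libraries were tested (14023 genes, 99.9% of counts). The test was edgeR 4.0.16 (R 4.3.3), with TMM scaling over all libraries, robust quasi-likelihood F tests and Benjamini-Hochberg adjustment at 0.05, and the script was tested on simulated counts. The main fit had agent as a block and genotype (2 residual degrees of freedom, common biological coefficient of variation 6.50%). Against 0 h there were 2 residual degrees of freedom, against 0.5 and 3 h 4, for TNF against the other agents (with the 0.5 h libraries) 2, and for the responses 4. SE was taken from the log2 difference and the square root of F. Values of single pairs use a prior count of 2. Intervals (95%, exact) and floors (3 counts) cover counting error only.

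Genes were named by rule: the 15 lowest and 10 highest called genes with at least 5 CPM in the higher genotype and 1 sign in 3 of 3 pairs, up to 5 called genes of each of 23 lists, a fixed set of NF-kB and immediate early genes, and the leading 5 in each direction of the other comparisons. Other genes named from the lists or the 0.5 h set were chosen after their values were seen. The members, lists and rules were chosen with earlier results of these data known. Alternatives were DESeq2 1.42.0, limma-voom (limma 3.58.1), other scaling, filters and libraries, no agent block, and leaving out each agent.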

Additional observations from a re-analysis of the deposited data

Results flagged for a closer look

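Some genes were picked out because the genotype difference (knock-in minus crel-/-, log2) at 1 h differed from that at another time or, for TNF, from that under the other agents, each by edgeR's quasi-likelihood test of the difference itself. Against 0 h these were Acod1 (-8.91), Icosl (-3.91), Irf1 (-3.60), Tlr2 (-2.68) and Bcl3 (-2.58). At 0 h these genes were at 2.62, 0.071, 0.094, -0.39 and 0.22, so that of them Tlr2 alone was lower in the knock-in before stimulation. Against 0.5 h they were Nod2 (-3.22), Icosl (-2.17), Ch25h (-1.45), Birc3 (-1.08) and Tlr2 (-1.0). Nod2 had pairs averaging -0.11 at 0.5 h, and a level below 7 CPM in every library at 1 h.

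From 1 h to 3 h, Nr3c2 (-3.43), the transporter gene Slco5a1 (-2.60), the sterol hydroxylase gene Cyp7b1 (-1.94), the formin gene Fhod3 (-1.80) and the zinc finger gene Zbtb7c (-1.69) moved down, and Egr4 (4.17), Cxcr4 (2.53), Gem (1.75), Tnfaip3 (1.41) and Mex3b (1.11) moved up. Fhod3 was higher in knock-in cells at 1 h (0.80, adjusted p = 0.00989) and averaged -0.94 over the pairs at 3 h. Cxcr4 was at 0.56 at 1 h (adjusted p = 0.235) and averaged 3.14 at 3 h. Its level fell in both genotypes over this time, and further in crel-/- cells. In crel-/- cells it went from 27.1, 17.4 and 25.4 CPM to 1.77, 1.01 and 4.62 CPM under IL-1b, LPS and TNF. In knock-in cells it went from 27.7, 31.8 and 44.8 CPM to 13.6, 15.4 and 35.6 CPM. Egr4 rested on few counts at 3 h, with 0, 0.290 and 0.428 CPM in crel-/- and 0.159, 0.375 and 4.80 CPM in knock-in cells under IL-1b, LPS and TNF.

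For TNF against IL-1b and LPS at 1 h, Kif23 (-0.89), Kif11 (-0.81), mt-Cytb (-0.68), mt-Nd1 (-0.64) and mt-Rnr2 (-0.64) were lower and Gfap (2.09), Ccl3 (1.44), Atp6v0d2 (1.39), Ccl4 (1.26) and Apod (1.23) higher. Kif23 and Kif11, motor proteins of cell division, had 40.3 and 59.0 CPM in the TNF control against 26.3 and 37.9 CPM in the TNF knock-in library, while under IL-1b and LPS the knock-in was the higher one. Kif11 had the same sign in the TNF pairs at 0.5 and 3 h (-0.27 and -0.68) and in the 0 h pair (-0.50), while the IL-1b and LPS pairs at all times lay between 0.082 and 0.27. Atp6v0d2 was at 0.79 and 0.96 in the other TNF pairs and at 0.55 at 0 h, against -0.88 to 0.15 under IL-1b and LPS. Gfap was at -1.79 and -1.45 in the other TNF pairs and -2.88 at 0 h, against -3.74 to -2.61. The pattern of these 3 genes was thus not limited to 1 library. Since the TNF libraries differ as a set from the IL-1b and LPS libraries, an effect of the agent and a difference between sets of libraries cannot be told apart.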

How the results depend on the processing

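The direction of the main comparison, with more genes lower than higher, held under every alternative run, and the size of the count did not. Against 521 lower and 370 higher, DESeq2 called 273 and 136, the fit with all 20 libraries 283 and 192, the fit without the count filter 859 and 703 and that without the agent block 20 and 3. Of the DESeq2 calls, 217 lower and 120 higher genes were also called by edgeR. Leaving out 1 agent gave 333 to 448 lower and 180 to 330 higher. The counts stayed within 1.5 times with library totals without TMM (549 and 311), limma-voom (521 and 325), TMM over the 6 libraries (545 and 344) and at least 1 CPM in 3 of 6 libraries (491 and 355).

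Against 0 h, where 19 genes were lower, DESeq2 called 42 lower, the fit with all 20 libraries, added after the data were seen, 4 lower, and leaving out 1 agent 36 to 81 lower and 1 to 8 higher. Against 0.5 h, DESeq2 called 16 lower and 1 higher, and leaving out 1 agent gave 3 to 28 and 0 to 5. From 1 h to 3 h, DESeq2 called 74 lower and 50 higher, and leaving out 1 agent gave 1 to 8 and 0 to 10. For TNF against the other agents, DESeq2 called 0 and 0, and the 6 libraries at 1 h alone gave 11 lower and 12 higher. For the response in crel-/- cells DESeq2 called 9 lower and 239 higher and leaving out 1 agent 0 to 2 and 12 to 72, and in knock-in cells DESeq2 called 5 and 81 and leaving out 1 agent 0 and 0 to 2. The causes of these changes were not tested.

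Among the named genes, signs turned for genes near 0 in the main comparison or in 1 pair. Without the block mt-Rnr2 was at 0.033. With 1 pair left out, Apod lay between -0.49 and 0.18, Atp6v0d2 between -0.66 and 0.22, CT010467.1 between -0.062 and 1.122, Cyp7b1 between -0.027 and 0.18, Egr1 between -0.71 and 0.31, Fos between -0.43 and 0.21, Fosb between -0.16 and 0.27, Jun between -0.11 and 0.24, Kif11 between -0.29 and 0.17, Kif23 between -0.19 and 0.27, mt-Cytb between -0.33 and 0.011, mt-Nd1 between -0.29 and 0.049, mt-Rnr2 between -0.13 and 0.19 and Nr4a1 between -0.11 and 0.33. The side above 0 came without the TNF pair for the kinesins and mitochondrial genes and without the LPS pair for Egr1 and Fos. None of these genes was called in the main comparison. Without the block 74 named genes lost their calls, and Ccl20, Irf1, Tlr2, Tnfaip3, Nfkbia, Nfkbie, Ccl7, C3, Sod2, Icosl, Nod2, Col2a1 and Wdfy1 were among those called. With DESeq2 23 were lost and 11 gained, Ccl2, Csf1, Cxcl2, Gbp5, Gfap, Gjb2, Icam1, Junb, Nfkb2, Vcam1 and Zfp36, all of which limma-voom called too. No paired analysis by replicate number was possible because each group holds 1 library and the labels give no replicate numbers. Depth limits genes at or near the floor of 0.241 to 0.321 CPM, such as Saa3, Il1a, Gpr84 and Ccl20 in knock-in cells.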
